A study of Mus musculus with 9 samples.

Results

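Rb1, Rbl1, Rbl2 and Trp53 encode the retinoblastoma protein Rb, its relatives p107 and p130, and the tumour suppressor p53. They were followed in cultured mouse preSC, preneoplastic neuroendocrine cells of the lung, and in preSC transduced with a retrovirus for a MYC protein. The 4 genes stand among 18193 gene symbols with a probe set of their own, and all probe sets that the platform annotation gives to 1 of them were taken. There were 8 such probe sets among the 45101 of the array: 2 for Rb1, 4 for Rbl1 and 2 for Rbl2. No probe set was assigned to Trp53 in the annotation used, so the Trp53 transcript itself was not analysed here.

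All 9 arrays were made from cells of a mixed C57BL/6 and 129/Sv background. Per the labels, the cells came from mice with conditional alleles for Rb, p53 and p130 whose lungs had been infected with Adeno-Cre virus, so Rb1, Trp53 and Rbl2 were targeted in every group, preSC included, while Rbl1 was not. There were 3 arrays of preSC with no transduced gene, 2 of preSC with retro-L-Myc virus, 2 with retro-C-Myc virus and 2 with retro-N-Myc virus. The labels give the ages of no animals and do not say how many animals or clones the cells came from, which exons the alleles lose, or whether an empty retrovirus was used. The RNA is labelled polyA for preSC and L-Myc and total for the other 4 arrays. This difference cannot be told apart from the transduced gene when C-Myc or N-Myc is set against preSC or against L-Myc.

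Rb, p107 and p130 are called pocket proteins. They bind E2F transcription factors and repress genes for DNA replication and mitosis, and cyclin-dependent kinases release E2F by phosphorylating them. The p107 and p130 proteins also join the MuvB core in the DREAM complex, which silences cell cycle genes in resting cells. The p53 protein is activated by DNA damage and oncogenes and raises transcription of arrest and death genes, among them Cdkn1a, whose product p21 inhibits the kinases that inactivate the pocket proteins.

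Values are log2 intensities, and changes are differences of group means on that scale, with the standard error (SE) of a limma fit to all 9 arrays. Adjusted p-values are from limma with Benjamini-Hochberg adjustment over the 29140 probe sets tested, and "rose" or "fell" is used only below 0.05. A probe set was tested if it lay above the 40th percentile of its array in at least 2 arrays, and 6 of the 8 member probe sets did. The comparisons with preSC share the 3 preSC arrays, and values for the transduced groups are always given in the order L-Myc, C-Myc, N-Myc unless a group is named. In bulk RNA, fewer cells that carry a transcript and less of it per cell cannot be told apart.

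The arrays did not all fit their labels cleanly. Mycl, the gene for L-Myc, was highest in the arrays labelled L-Myc on probe set 1422087_at (12.27, 7.60 and 7.11 against 5.58 in preSC). On 1422088_at Mycl was higher in every transduced group (6.99, 6.62 and 6.42 against 4.71). On 1434777_at Mycl was higher in no transduced group (8.67, 8.23 and 8.20 against 8.90). Myc, the gene for C-Myc, was as high in the arrays labelled N-Myc (11.68) as in those labelled C-Myc (10.95), against 7.15 in preSC, so groups below are named by their labels alone. Mycn, the gene for N-Myc, was highest in the arrays labelled N-Myc on 1425922_a_at (8.76 against 6.21 in preSC), but 1425923_at was higher in all 3 transduced groups (13.12, 13.31 and 11.35 against 6.68) and 1417155_at was lowest in those labelled N-Myc (7.44, 6.19 and 5.55 against 8.25). Of 16 neuroendocrine marker genes with a probe set, 15 were above the percentile on all 9 arrays, and the list mean was 10.36 to 10.53 in preSC against 10.24 to 10.26, 9.75 to 10.07 and 9.89 to 9.89 in the transduced groups. Of the 15 tested, 3 rose in each transduced group and 4, 8 and 9 fell. Examples named after their values were seen are Nkx2-1, a lung lineage factor gene, with changes of 2.51, 2.53 and 2.65 (SE 0.21), and Scg2, a secretory granule gene, with -1.93, -2.42 and -1.66 (SE 0.39). The part of these changes in the results for Rb1, Rbl1 and Rbl2 was not tested. The 6 genes Pecam1, Cdh5, Ptprc, Col1a1, Col3a1 and Scgb1a1, which mark endothelium, leukocytes, fibroblasts and club cells, were below the percentile on all 9. In all, 5 of 11 stromal, 6 of 9 endothelial, 5 of 10 leukocyte and 6 of 13 lung epithelial marker genes were below it on all 9. The list means stayed between 4.94 and 5.85 in every array, which hides markers well above the percentile. The leukocyte marker Lyz2 was at 8.34 in preSC and 8.71, 9.54 and 9.89 in the transduced groups. The stromal marker Dcn was at 7.59 in preSC and 7.81, 7.51 and 5.58 in the transduced groups. Vwf and Sftpc are given at the end. PreSC also stood apart from the 6 transduced arrays in some control probe sets but not in all. The 5' minus 3' signal of Actb was -0.85 to -0.62 in preSC and -0.31 to -0.20 in transduced arrays, and that of the spiked-in Dap was -3.66 to -3.40 and -1.68 to -1.51 (each exact permutation p = 0.0119, two-sided, the smallest that 84 splits allow, adjusted p = 0.0159 over 8 quantities). The 18S ribosomal RNA signal was 12.58 to 14.07 in preSC and 8.03 to 9.55 in transduced arrays over its 3 probe sets. The 5' minus 3' signal of Gapdh also separated them, at -0.13 to -0.02 and 0.16 to 0.24. That of the spiked-in Lys did not, at -1.66 to -1.31 and -1.50 to -1.33 (exact permutation, adjusted p = 0.259). Nor did the spiked-in BioB, at 8.23 to 8.48 and 8.25 to 8.61 (exact permutation, adjusted p = 0.310). The Actb, Dap and 18S differences run between preSC and every transduced group, L-Myc included, so they do not follow the labelled RNA type. In comparisons with preSC they cannot be told apart from the transduced gene.

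Rb1 gave a strong signal in cells in which its alleles were targeted, and that signal was lower in every transduced group. On probe set 1417850_at, it was 12.17, 12.34 and 11.83 in preSC 1, 2 and 3, 11.59 and 10.87 in L-Myc 1 and 2, 10.49 and 10.73 in C-Myc 1 and 2, and 10.77 and 10.45 in N-Myc 1 and 2. All 6 transduced arrays lay below all 3 preSC arrays, and both L-Myc arrays lay above all C-Myc and N-Myc arrays. The Actb, Dap and 18S controls separated preSC from the same 6 arrays, and their part in the Rb1 difference was not tested. An array probe set reports any transcript that holds its target sequence, and a truncated transcript of a Cre-deleted allele can still do so. Where 1417850_at lies relative to the deleted exons was not analysed here, so its level is not read as intact Rb1 message.

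The mean of Rb1 was 12.11 ± 0.26 (SD, n = 3) in preSC, and the means of the transduced groups were 11.23 ± 0.51, 10.61 ± 0.17 and 10.61 ± 0.23 (SD, n = 2 each). With C-Myc the change was -1.50 (SE 0.25, adjusted p = 0.00512), a 2.83-fold fall, and with N-Myc it was -1.50 (SE 0.25, adjusted p = 0.00459). With L-Myc it was -0.88 (SE 0.25, adjusted p = 0.0436), a 1.84-fold fall. Leaving out an array of a transduced group leaves 1 in it, which is then assumed to vary like the other groups. The L-Myc call was lost without L-Myc 2 (-0.52, adjusted p = 0.241), preSC 1 (adjusted p = 0.112) or preSC 2 (adjusted p = 0.126), with no filter on low values (adjusted p = 0.0512), with 1 probe set per gene (adjusted p = 0.0620) and with arrays of the 2 groups only (adjusted p = 0.0765). With preSC 1 and 2 averaged into 1 sample and likewise N-Myc 1 and 2, which are far closer than other replicates, the adjusted p-values were 0.179, 0.0492 and 0.105. L-Myc minus C-Myc was 0.62 with a 95% interval of -0.03 to 1.27, L-Myc minus N-Myc was 0.62 with the interval -0.03 to 1.27, and C-Myc minus N-Myc was -0.00087 with an interval of -0.65 to 0.65, so no order among the transduced groups passed. The second Rb1 probe set, 1444400_at, stayed between 3.89 and 4.39 and below the percentile on every array, so it was not tested.

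**Figure D1:**
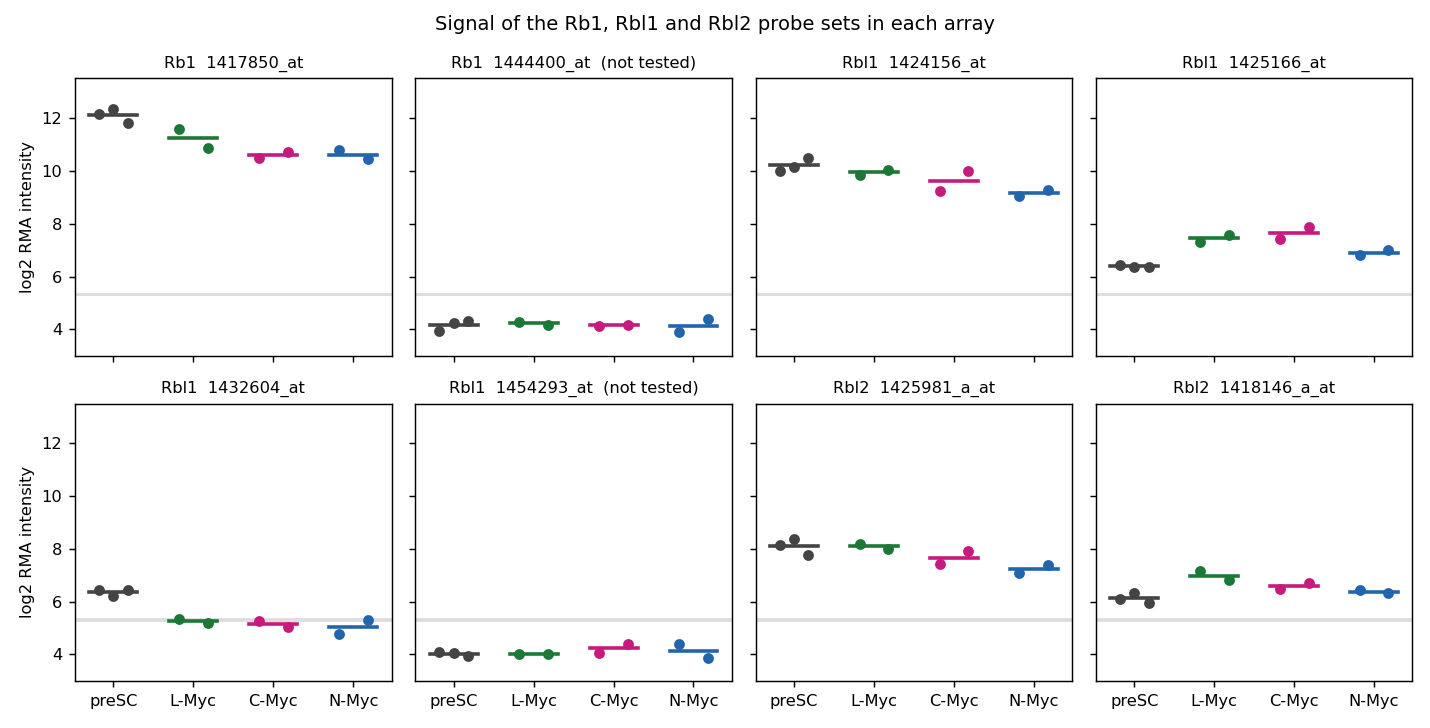
Signal of the 8 probe sets of Rb1, Rbl1 and Rbl2 as log2 RMA intensity (vertical axis) in the 4 groups (horizontal axis); each point is 1 array, each short line a group mean, and the grey band the range of the 40th percentile over arrays. Rb1 1417850_at lies lower in all 6 transduced arrays than in preSC, while Rbl1 1425166_at lies higher in all 6.

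Rbl1 is the pocket protein gene left intact in these cells, and its transcript is a known E2F target. The 250 bases before the Rbl1 start in RefSeq (GRCm38.p6, chr2:157204535-157204784, minus strand) and those before the Rbl2 start (chr8:91069807-91070056, plus strand) are shown because p107 and p130 are the pair whose probe sets moved in 2 directions. Capitals mark an E2F motif, searched as TTTCGCG and TTTGGCG on both strands.
Rbl1: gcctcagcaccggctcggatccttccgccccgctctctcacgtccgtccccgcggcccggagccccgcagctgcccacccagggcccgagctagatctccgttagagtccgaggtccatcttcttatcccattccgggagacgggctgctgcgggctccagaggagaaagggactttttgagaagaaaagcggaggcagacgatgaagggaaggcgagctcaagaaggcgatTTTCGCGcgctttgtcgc
Rbl2: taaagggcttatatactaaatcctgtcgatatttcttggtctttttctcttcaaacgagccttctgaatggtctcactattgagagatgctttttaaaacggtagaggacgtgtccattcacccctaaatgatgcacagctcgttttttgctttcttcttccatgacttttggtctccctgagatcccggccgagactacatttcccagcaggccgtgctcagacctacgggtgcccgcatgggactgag

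The Rbl1 window held TTTCGCG from 18 to 12 bases before the start, a motif that with TTTGGCG occurs in 1.93% of 32851 promoter windows of the same length. No such letters were in the Rbl2 window. The MYC E-box CACGTG, present in 6.02% of windows, was in neither. Of the cell cycle homology letters TTTGAA and TTCGAA, to which the MuvB core binds, TTTGAA occurred once in the Rbl2 window, on the opposite strand from 201 to 196 bases before the start, and in 16.0% of all windows. The Rbl1 window had 63.6% G and C bases and the Rbl2 window 46.8%. No promoter of Rb1 was matched. A match is a run of letters and was not tested as a binding site.

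The 3 tested Rbl1 probe sets did not move together. One fell, one rose and one was high only in preSC, so Rbl1 is given no single direction. Probe set 1424156_at gave 9.99, 10.15 and 10.51 in preSC 1, 2 and 3, 9.84 and 10.04 in L-Myc 1 and 2, 9.23 and 10.00 in C-Myc 1 and 2, and 9.06 and 9.27 in N-Myc 1 and 2. Its mean was 10.21 ± 0.27 (SD, n = 3) in preSC against 9.94 ± 0.14, 9.61 ± 0.54 and 9.16 ± 0.14 (SD, n = 2 each) in the transduced groups. The N-Myc arrays lay below all preSC arrays, while 1 of the L-Myc and 1 of the C-Myc arrays overlapped the preSC range. On this probe set Rbl1 fell by 1.05 with N-Myc (SE 0.25, adjusted p = 0.0164), while the differences with L-Myc, -0.27 (adjusted p = 0.483), and with C-Myc, -0.60 (adjusted p = 0.112), did not pass. The N-Myc call was lost without N-Myc 1 (adjusted p = 0.112) or without N-Myc 2 (adjusted p = 0.0707), and the C-Myc value was -0.99 (adjusted p = 0.0202) without C-Myc 2, with the spread taken from the other groups.

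Probe set 1425166_at moved the other way. Its signal was 6.44, 6.37 and 6.36 in preSC 1, 2 and 3, 7.32 and 7.58 in L-Myc 1 and 2, 7.43 and 7.88 in C-Myc 1 and 2, and 6.80 and 6.99 in N-Myc 1 and 2. Every transduced array was above every preSC array, with C-Myc and L-Myc arrays above both N-Myc arrays. The preSC mean was 6.39 ± 0.04 (SD, n = 3), and those of the transduced groups were 7.45 ± 0.18, 7.65 ± 0.32 and 6.90 ± 0.14 (SD, n = 2 each). With L-Myc it rose by 1.06 (SE 0.17, adjusted p = 0.00538) or 2.08-fold, and with C-Myc by 1.26 (SE 0.17, adjusted p = 0.00224) or 2.40-fold. The L-Myc call was lost with the close pairs averaged (adjusted p = 0.0544). With N-Myc the difference was 0.51 (SE 0.17, adjusted p = 0.0535), which passed with arrays centred (0.57, adjusted p = 0.0438) or quantile normalized (0.57, adjusted p = 0.0420) and in a fit of those 2 groups only (adjusted p = 0.0207). C-Myc minus N-Myc was 0.76 (95% interval 0.32 to 1.19, adjusted p = 0.930) with all arrays and 0.98 (adjusted p = 0.0453) without C-Myc 1, where 1 C-Myc array is left and the spread comes from the other groups.

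The third, 1432604_at, read 6.46, 6.21 and 6.44 in preSC 1, 2 and 3, 5.36 and 5.20 in L-Myc 1 and 2, 5.25 and 5.03 in C-Myc 1 and 2, and 4.78 and 5.29 in N-Myc 1 and 2. It was above the percentile only in the 3 preSC arrays and L-Myc 1, so it entered the test through the group in which it was high, and its fall is no support for the direction of Rbl1. Its changes were -1.09, -1.23 and -1.34 (SE 0.19 each), with adjusted p-values of 0.00676, 0.00334 and 0.00226 (0.0531 for N-Myc with the close pairs averaged). The remaining Rbl1 probe set, 1454293_at, stayed between 3.87 and 4.41, below the percentile on all 9 arrays.

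Rbl2 encodes p130, the pocket protein that is most abundant in resting cells, and its alleles were targeted in these cells. Its brighter probe set, 1425981_a_at, gave 8.16, 8.36 and 7.78 in preSC 1, 2 and 3, 8.20 and 7.99 in L-Myc 1 and 2, 7.43 and 7.90 in C-Myc 1 and 2, and 7.09 and 7.38 in N-Myc 1 and 2. Both N-Myc arrays lay below all others in the series. The mean was 8.10 ± 0.30 (SD, n = 3) in preSC against 8.10 ± 0.14, 7.67 ± 0.34 and 7.24 ± 0.20 (SD, n = 2 each) in the transduced groups. With N-Myc, Rbl2 fell by 0.86 on it (SE 0.22, adjusted p = 0.0220), a call lost without preSC 1 (adjusted p = 0.0635), preSC 2 (adjusted p = 0.0680), N-Myc 1 (adjusted p = 0.150) or N-Myc 2 (adjusted p = 0.0690). The difference was -0.43 (SE 0.22, adjusted p = 0.182) with C-Myc and -0.0044 (95% interval -0.53 to 0.52) with L-Myc.

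The dimmer Rbl2 probe set, 1418146_a_at, gave 6.12, 6.33 and 5.96 in preSC 1, 2 and 3, 7.17 and 6.80 in L-Myc 1 and 2, 6.48 and 6.71 in C-Myc 1 and 2, and 6.43 and 6.32 in N-Myc 1 and 2. Here the L-Myc arrays were the highest of the series. The preSC mean was 6.14 ± 0.18 (SD, n = 3), and the others were 6.98 ± 0.26, 6.60 ± 0.16 and 6.37 ± 0.08 (SD, n = 2 each). With L-Myc it rose by 0.85 (SE 0.17, adjusted p = 0.0130) or 1.80-fold, a call lost without L-Myc 1 (0.66, adjusted p = 0.0769). Neither 0.46 with C-Myc (adjusted p = 0.0829) nor 0.24 with N-Myc (adjusted p = 0.319) passed. As for Rbl1, the probe sets thus give Rbl2 no single direction.

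**Figure D2:**
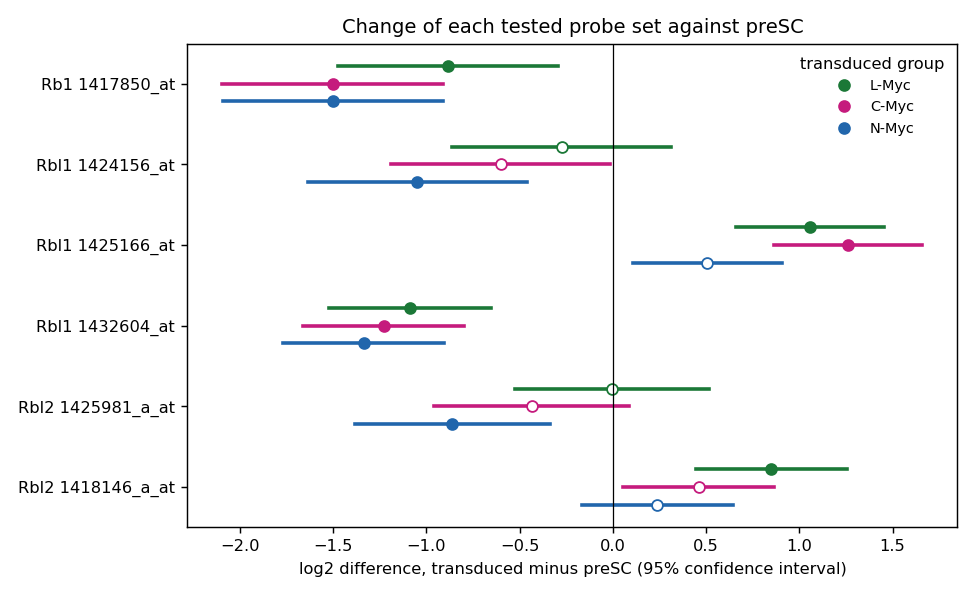
Change of the 6 tested probe sets against preSC (horizontal axis, log2 difference with 95% confidence interval) in each transduced group; filled points passed the limma test and open points did not. Rb1 fell in all 3 groups on its 1 tested probe set, and some alternatives lost the L-Myc and N-Myc calls. The probe sets of Rbl1 and of Rbl2 lie on both sides of 0.

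The disagreement between probe sets of a gene was itself measured within each array, in a test added after the values were seen, with each pair ordered so that the shift is positive. For Rbl1, 1425166_at minus 1424156_at was -3.82 ± 0.30 in the 3 preSC arrays (SD) and -2.24 ± 0.26 in the 6 others, a shift of 1.58. For Rbl2, 1418146_a_at minus 1425981_a_at was -1.96 ± 0.13 (SD, n = 3) and became -1.01 ± 0.20 (SD, n = 6), shifting by 0.95. In both the 6 transduced arrays lay above all preSC arrays (exact permutation p = 0.0119, two-sided, the smallest possible, adjusted p = 0.0159). The values of these probe sets were known before the test, and the 6 arrays pool 3 groups. The p-value is therefore no further support for a shift. How often probe set pairs of other genes separate in this way was not measured. The shifts are therefore not read as particular to Rbl1 or Rbl2. The adjustment is over 4 differences, and those with 1432604_at are not given because it entered the test through preSC and was near or below the percentile in the transduced arrays. The 5' minus 3' signals of Actb and Dap separated the same 3 preSC arrays from the same 6 arrays, while that of Lys did not. The part of these signals in the shifts was not tested.

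**Figure D3:**
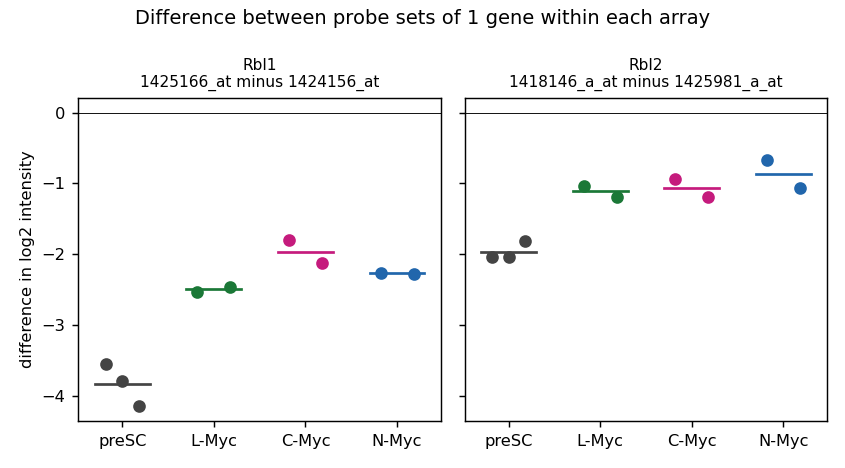
Difference in log2 intensity between 2 probe sets of the same gene within each array (vertical axis) by group (horizontal axis); points are arrays and short lines group means. For the pair of Rbl1 and the pair of Rbl2 shown, the preSC arrays lie below all 6 transduced arrays.

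Counted over probe sets, 4 of the 6 tested members passed in L-Myc against preSC, 2 higher and 2 lower, where 22% of all probe sets passed, 11.6% as higher and 10.4% as lower. In C-Myc against preSC 3 of 6 passed, 1 higher and 2 lower, where 29.7% of all did, 15.1% as higher and 14.6% as lower. In N-Myc against preSC 4 of 6 passed, all lower, where 34.7% of all did, 17.3% as higher and 17.4% as lower. The arrays of the 2 groups did not overlap at 4, 4 and 5 of the 6 members, where the same held for 53.8%, 55.2% and 67.6% of all probe sets, so separation of 3 arrays from 2 was common on these arrays. These counts include 1432604_at in each comparison, and they share the preSC arrays. Rb1 1417850_at is the only member probe set other than 1432604_at that passed in all 3.

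Between the transduced groups, no member passed in L-Myc against C-Myc, where 0% of all probe sets passed in limma, in L-Myc against N-Myc (0%) or in C-Myc against N-Myc (0.00343%). At an unadjusted p under 0.05, 0 of 6 members and 4.6% of all probe sets passed in the first, 4 of 6 and 18.7% in the second, and 1 of 6 and 4.4% in the third. In L-Myc against N-Myc these 4 were both Rbl2 probe sets, 0.86 (95% interval 0.28 to 1.43) and 0.61 (0.17 to 1.05), and Rbl1 1424156_at and 1425166_at, 0.78 (0.13 to 1.42) and 0.55 (0.12 to 0.99), all higher in L-Myc arrays. Their adjusted p-values in limma were 0.158 to 0.206. Arrays of the 2 groups did not overlap at 3, 5 and 3 of 6 members, against 26.4%, 54.8% and 33% of all probe sets. L-Myc samples also differ from C-Myc and N-Myc samples in the labelled RNA type.

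Genes of the Rb and p53 pathways were counted on the brightest probe set of each gene. On those probe sets 16.9%, 25.8% and 30.8% of 12976 genes passed against preSC: 6.82% rose and 10.1% fell with L-Myc, 10.7% and 15.1% with C-Myc, and 13.3% and 17.5% with N-Myc. Between the transduced groups 0% passed. The SE of a gene is the same in all 3 comparisons with preSC. The E2F and DP genes, whose products the pocket proteins bind, went both ways: of 10 tested, 2, 3 and 2 rose and 1, 3 and 4 fell. E2f4, the main E2F of p107 and p130, rose by 0.74, 0.78 and 1.06 (SE 0.19). E2f7, an atypical repressor E2F, fell, with changes of -1.10, -1.04 and -1.06 (SE 0.21). E2f2, an activator E2F, fell with C-Myc (-1.15, SE 0.31) and N-Myc (-1.61), on its other probe set as well, and its difference with L-Myc was -0.43 (adjusted p = 0.369). E2f1, another activator, rose by 0.87, 0.53 and 0.65 (SE 0.15) on its brightest probe set, while the other differed by 0.08, -0.36 and -0.43. E2f8, an atypical repressor, had -0.79 (adjusted p = 0.0910), -1.20 and -0.94 (SE 0.29) on its brightest probe set, while its other probe set rose by 3.12, 2.43 and 2.85.

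Of 17 tested cyclin, kinase and inhibitor genes that act upstream of the pocket proteins, 1, 2 and 3 rose and 3, 4 and 5 fell. Several of the largest falls were inhibitor genes. Cdkn2b, which encodes the CDK4 and CDK6 inhibitor p15, changed by -1.51, -1.49 and -1.29 (SE 0.29). Cdkn2d, which encodes p19 of the same family, changed by -1.24 with C-Myc and -1.30 with N-Myc (SE 0.32), against -0.41 with L-Myc (adjusted p = 0.403). Cdk4, a kinase that phosphorylates Rb, rose by 0.53, 0.74 and 0.72 (SE 0.16), and so did both of its other probe sets. Cdc25a, a phosphatase that activates CDK2, changed by -0.79, -1.03 and -1.23 (SE 0.18) on its brightest probe set, but 1 of its 2 other probe sets rose by 1.40 and 0.88 with L-Myc and C-Myc.

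Targets of E2F and DREAM were called in both directions. Of 30 tested S-phase targets, 2, 3 and 5 rose and 0, 2 and 2 fell, with medians of 0.01, -0.08 and 0.06 beside -0.04, -0.05 and -0.03 over all genes. Rfc4, a subunit of the clamp loader, rose by 0.95, 0.89 and 0.77 (SE 0.16), while its other probe set differed by 0.18, 0.18 and 0.00028. Of 27 mitotic targets, 2 rose in each group and 1, 2 and 5 fell, with medians of 0.06, 0.05 and -0.24. Cdc20, an activator of the anaphase-promoting complex, changed by -0.72, -0.79 and -0.97 (SE 0.16) on its brightest probe set, while 2 others lay between -0.60 and 0.07. Of 8 MuvB, MYB and FOXM1 genes, 1 rose with L-Myc, and 2 fell with C-Myc and 2 with N-Myc. Mybl2, which joins MuvB to activate mitotic genes, was the one that rose, by 0.88 (SE 0.23), with 0.68 (adjusted p = 0.0572) and 0.33 (adjusted p = 0.296) in C-Myc and N-Myc, and its other probe set rose by 1.73, 2.12 and 2.23. Mybl1, of the same family, changed by -0.78 with C-Myc and -1.01 with N-Myc (SE 0.21), against -0.47 with L-Myc (adjusted p = 0.151), while its other probe set differed by 0.67, 0.45 and 0.14.

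On the brightest probe set, chromatin partners of Rb were called as lower or not at all. Of 14 tested, 0 passed in limma with L-Myc (1 at an unadjusted p under 0.05), 4 fell with C-Myc and 5 with N-Myc. Other probe sets were not counted and differed from this. With L-Myc, both others of Dnmt1 fell (-1.19 and -1.09), and 3 of 4 others of Kdm5a fell. Of the 2 others of Hdac2, 1 rose by 0.67 and 1 changed by -1.59 with L-Myc. Smarca4, the ATPase of SWI/SNF remodelers, changed by -0.81 with C-Myc and -0.90 with N-Myc (SE 0.22), against -0.47 with L-Myc (adjusted p = 0.171), and its other probe set changed by -0.84 with each of C-Myc and N-Myc. Arid4a, an Rb-binding protein gene, changed by -0.82 with C-Myc and -0.97 with N-Myc (SE 0.24), against -0.44 with L-Myc (adjusted p = 0.238), and with both C-Myc and N-Myc its other probe set fell too. The list medians were -0.06, -0.14 and -0.22, beside -0.04, -0.05 and -0.03 over all genes.

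Target genes of p53 were called in both directions against preSC in these cells, in which the Trp53 alleles were targeted. Of 27 tested, 2, 4 and 3 rose and 3, 4 and 7 fell, and 0 passed between the transduced groups. These counts lie near the 16.9%, 25.8% and 30.8% of all genes that passed against preSC. The list medians were -0.21, -0.24 and -0.30, beside -0.04, -0.05 and -0.03 over all genes. Cdkn1a had a mean of 11.73 in preSC against 9.58 with C-Myc and 9.51 with N-Myc, changes of -2.15 (SE 0.48, adjusted p = 0.0139) and -2.22 (SE 0.48, adjusted p = 0.0110). Its difference with L-Myc was -0.68 (SE 0.48, adjusted p = 0.352). Its second probe set changed by -2.12 and -2.25 with C-Myc and N-Myc. Ddb2, a DNA repair gene, changed by -1.40 and -1.43 (SE 0.32) with these groups, whereas Aen, an apoptosis nuclease gene, rose by 0.99 and 1.33 (SE 0.31), each gene moving the same way on its other probe sets. With L-Myc they differed by -0.80 (adjusted p = 0.116) and 0.65 (adjusted p = 0.178) on the brightest probe set. The other probe set of Ddb2 fell with L-Myc (-1.26), and 1 of the 3 others of Aen rose (range 0.40 to 1.62). Trp53inp1, a stress protein gene, changed by -1.73, -1.78 and -1.59 (SE 0.21), while its other probe set differed by 0.06, -0.06 and 0.20.

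Regulators and relatives of p53 were lower in more cases than higher: of 19 tested, 0, 1 and 1 rose and 7, 6 and 8 fell, with medians of -0.18, -0.34 and -0.42. Trp73, which encodes the p53 relative p73, changed by -0.999, -1.64 and -2.10 (SE 0.19), but its other probe set differed by 0.05 to 0.19. Crebbp, an acetyltransferase of p53, changed by -1.45, -1.51 and -1.32 (SE 0.18), with 3 other probe sets between -0.79 and 0.70. Mdm2, the ubiquitin ligase that degrades p53 and is also its target, was named after its values were seen. Its changes were 0.49 (adjusted p = 0.0632), 0.53 (adjusted p = 0.0404) and 0.58 (adjusted p = 0.0261), and its other probe set rose by 1.70, 1.93 and 1.89.

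**Figure D4:**
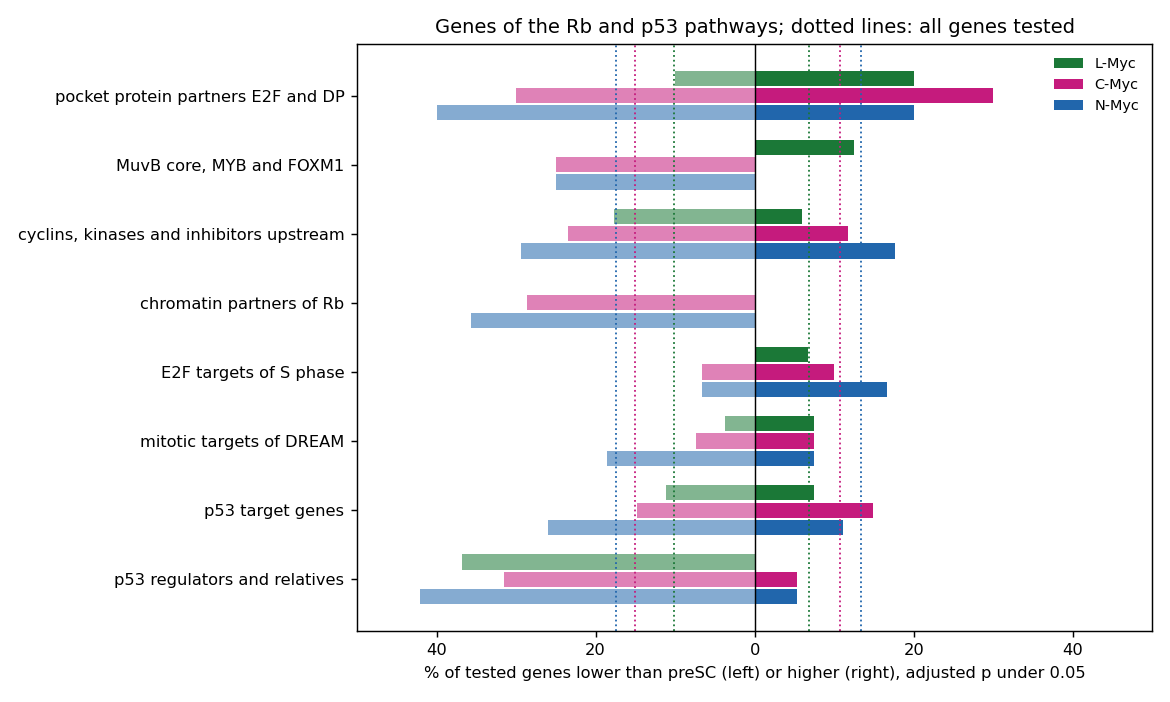
Share of the tested genes of each pathway list (vertical axis) that was lower (left, pale) or higher (right, solid) than preSC in limma, in percent (horizontal axis), with 1 colour for each transduced group; dotted lines give the same shares over all 12976 genes tested. The lists hold between 8 and 30 tested genes, and the longest bars are those of p53 regulators and E2F genes that fell with N-Myc.

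The genes whose pattern over the 9 arrays was most like that of a member were ranked by Pearson's r among 12295 named genes, as a description in which the arrays share groups. For Rb1 1417850_at they were Fbrsl1 (r = 0.99), Zfp704 (r = 0.99), Olfm1 (r = 0.99), Tlcd3b (r = 0.99) and the respiratory chain subunit gene Cox6a1 (r = 0.99). Olfm1 was at 12.06 in preSC and at 11.16, 10.30 and 10.21 in the transduced groups. The most opposite were Socs6, Tmem70 (r = -0.99) and the nucleoside diphosphate kinase gene Nme2 (r = -0.99). For Rbl1 1424156_at the closest were Slc22a15 (r = 1.00), the gamma-secretase subunit gene Aph1b (r = 0.99), Ccdc186 (r = 0.99), Cpd (r = 0.99) and Snx14 (r = 0.99), and the most opposite was the glycolytic enzyme gene Tpi1 (r = -0.99). For Rbl2 1425981_a_at they were Tedc2 (r = 0.98), the cohesin subunit gene Stag1 (r = 0.98), Astn1 (r = 0.98), Stx12 (r = 0.97) and the condensin subunit gene Ncapg2 (r = 0.97), and the most opposite was Slc4a8 (r = -0.98).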

How the data were processed

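RNA of 9 samples was measured on Affymetrix arrays. The authors deposited log2 values, made with RMA in the affy package under R 3.0.1 per the submitters' processing notes. RMA forces the arrays to a common distribution, so a change of all transcripts in 1 direction would be lost. Array medians were 6.02 to 6.07, and no scaling was added. Of 45101 probe sets, 34945 had 1 gene symbol, 932 had several and 9211 were not listed. The 64 control probe sets were not tested. The 40th percentile of an array was 5.28 to 5.34. Means of the groups were estimated with limma 3.58.1 in R 4.3.3, with 5 residual degrees of freedom, and the fit was tested on simulated data. The spread is that between these arrays, called biological replicates by the design text, and the number of arrays limits the precision. Only 29 probe sets were over 2-fold apart between preSC 1 and 2 and 13 between the N-Myc arrays, against 1807 to 3032 for other pairs of a group, and the labels do not say whether these close pairs were separate cultures. For named genes of the lists the rule took the up to 4 largest changes past the threshold, and the text gives some of them, with the same genes' values in the other groups. Alternatives were no filter, 1 probe set per gene, centring, quantile normalization, fits of 2 groups, a replicate block and leaving out each array. Members and lists were chosen with earlier results of these data known.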

Additional observations from a re-analysis of the deposited data

How the results depend on the processing

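No member changed direction under any alternative in which it was called. With 1 probe set per gene, 1748 (L-Myc), 3049 (C-Myc) and 3741 (N-Myc) genes were called against preSC and 0 in C-Myc against N-Myc, and 0 of 3 members passed in L-Myc (Rb1 adjusted p = 0.0620) and 1 of 3 in C-Myc. With all settings as reported the counts were 6423, 8650, 10107 and 1 probe sets. Arrays of the 2 groups only gave 669 in L-Myc against N-Myc, 0 with all arrays, and 0 in C-Myc against N-Myc. With the close pairs averaged, an alternative chosen after seeing the data, 1827, 2822 and 355 probe sets were called against preSC and 0 in C-Myc against N-Myc. Of the members, 1 of 6 then passed in L-Myc and 0 of 6 in N-Myc (Rb1 -1.43, adjusted p = 0.105), and 3 of 6 in C-Myc (Rb1 -1.43, adjusted p = 0.0492). Leaving out 1 array gave 3348 to 5015 probe sets in L-Myc, 5504 to 9153 in C-Myc and 3783 to 8588 in N-Myc against preSC, 0 to 1180 in L-Myc against C-Myc (the highest without C-Myc 2), 0 to 22 in L-Myc against N-Myc and 0 to 852 in C-Myc against N-Myc (the highest without C-Myc 1). The members called were then 3 to 4 in L-Myc, 3 to 4 in C-Myc and 2 to 4 in N-Myc against preSC and 0 to 1 in C-Myc against N-Myc. The cause of these moves was not tested. Of 12 same-numbered pairs of arrays, 9 had a positive correlation of deviations from their group means (0.10 to 0.61) and 3 a negative one (-0.64 to -0.00051), so the numbers were not taken to pair the samples. With the number as a replicate block 5211, 7659 and 8789 probe sets were called against preSC, 0 in C-Myc against N-Myc, and 4, 3 and 4 members. Genes of the pathway lists were not refitted under alternatives.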

Other observations

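Genes beside the members in the RefSeq table were read on their brightest probe set. Lpar6, a lysophosphatidic acid receptor gene that overlaps Rb1, differed from preSC by 0.21, 0.96 and 0.40 (SE 0.60) with L-Myc, C-Myc and N-Myc and passed in none. Itm2b, on one side of Rb1, changed by -1.27 with C-Myc and -1.37 with N-Myc (SE 0.25), against -0.62 with L-Myc (adjusted p = 0.121 in limma). Rcbtb2, on the other side, rose by 0.82, 0.74 and 0.91 (SE 0.17). Of its 3 other probe sets, 0, 1 and 0 rose, and with N-Myc they lay between -0.39 and 0.42. Beside Rbl2, the chromodomain helicase gene Chd9 changed by -1.26, -1.66 and -1.75 (SE 0.26), and its other probe set fell too, and Aktip, which overlaps Rbl2, passed in none (0.25, 0.27 and 0.38, SE 0.15 each). Fto, on the other side of Rbl2 from Chd9, passed in none on its brightest probe set, while its other probe set rose by 1.22, 1.23 and 1.55. Samhd1 and Rpn2 beside Rbl1 passed in none. Beside Trp53, Atp1b2, a sodium pump subunit gene, changed by -1.39 with C-Myc and -1.67 with N-Myc (SE 0.28), and Wrap53, a telomerase cofactor gene, differed by 0.42, 0.51 and 0.23 (SE 0.22 each) without passing.

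Markers of other cell types that were well above the percentile included Vwf, which encodes von Willebrand factor, at 10.61 in preSC and 7.55, 7.84 and 8.57 in the transduced groups. Sftpc, an alveolar type 2 cell marker, was at 7.58 in preSC and 7.10, 8.42 and 10.84 in the transduced groups.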
